A study of Mus musculus with 26 samples.

Results

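The genes examined here are 9 genes by which neutrophils, the short-lived granulocytes that enter injured tissue first, are recognised in RNA. They were taken from the deposited FPKM table of the muscle regeneration course by their gene symbols, and all 9 were found among its 53465 genes. The 5 mature markers were S100a8, S100a9, Csf3r, Cxcr2 and Retnlg, and the 4 granule precursor genes were Mpo, Ngp, Camp and Ltf. The table holds RNA-Seq of tibialis anterior (TA) muscle of C57BL/6J mice on days 0, 1, 3, 5 and 10 of the cardiotoxin (CTX) course, with 2 libraries per day and 10 in all. CTX, a toxin from cobra venom, lyses muscle fibres and leaves the stem cells that rebuild them. The methods describe 6-week-old male mice and name saline as the control, while the labels give only day 0, so whether day 0 muscle was untouched or given saline is not settled. The labels do not say whether the libraries of a day came from separate mice, so a p-value measures only the spread between these libraries. A second table, of cultured C2C12 mouse myoblasts, either control cells or cells with a Mettl3 knockdown construct, is used at the end.

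Neutrophils are made in the bone marrow, where their precursors load granules in a fixed order. Myeloperoxidase (Mpo) belongs to the primary granules of promyelocytes, and Ngp, Camp and Ltf belong to the secondary granules of myelocytes and metamyelocytes. These mRNAs are largely gone when the cell enters the blood, whereas S100a8, S100a9, Csf3r, Cxcr2 and Retnlg are transcribed in the mature cell. The protein granules are then carried into the tissue without their mRNA, so an RNA profile of muscle reads the 2 groups of genes separately.

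Before the values, the libraries themselves need a remark. Xist, the RNA of the inactive X chromosome of females, stood at 5.77 to 10.0 FPKM in 5 libraries (both of day 0, both of day 10 and the second of day 3), in which 4 genes of the Y chromosome (Uty, Kdm5d, Eif2s3y and Ddx3y) stayed at or below 0.108 FPKM. The other 5 libraries had no more than 0.152 FPKM of Xist and 0.626 FPKM or more of each Y gene, so 5 of 10 libraries went against the stated sex of the mice. Neither the day 1 nor the day 5 libraries share an Xist class with those of day 0. For these comparisons sex and day cannot be told apart except through the single pair of day 3 libraries. From the steps of the low FPKM values, the libraries held between 14170000 and 18820000 reads on genes. A single read raised a gene of 1 kb by 0.0494 to 0.0817 FPKM. The muscle fibre markers (Acta1, Tnnt3, Mylpf, Ckm and Myh4) summed to 13500 to 61900 FPKM in every library, as the tissue label says.

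The S100a8 and S100a9 genes, which encode the subunits of calprotectin, lie 22.6 kb apart on chromosome 3 (GRCm38, S100a8 at chr3:90668978-90670035 and S100a9 at chr3:90692632-90695721). Camp, Ngp and Ltf lie within 1.2 Mb on chromosome 9. Csf3r (chr4:126024550-126044440), Cxcr2 (chr1:74153989-74161246), Retnlg (chr16:48872621-48874496) and Mpo (chr11:87793581-87804413) stand alone among the members. C/EBP factors and PU.1 (Spi1) are the transcription factors of the granulocyte line, and the sequences before the genes were searched for their letters. The 250 bases before the RefSeq start (GRCm38.p6) are shown for the 4 members that could be tested and for Ngp, the granule precursor gene with the most reads, because these are the genes whose course over the days is described. Capitals mark TTNNGNAA (the C/EBP consensus) and GAGGAA (the PU.1 core) on either strand.
S100a8 (chr3:90668821-90669070, plus strand): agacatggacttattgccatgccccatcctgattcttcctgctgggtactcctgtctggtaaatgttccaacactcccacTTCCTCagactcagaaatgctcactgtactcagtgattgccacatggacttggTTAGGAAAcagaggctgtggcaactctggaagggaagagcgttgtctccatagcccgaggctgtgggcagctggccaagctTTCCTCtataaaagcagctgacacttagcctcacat
S100a9 (chr3:90695722-90695971, minus strand): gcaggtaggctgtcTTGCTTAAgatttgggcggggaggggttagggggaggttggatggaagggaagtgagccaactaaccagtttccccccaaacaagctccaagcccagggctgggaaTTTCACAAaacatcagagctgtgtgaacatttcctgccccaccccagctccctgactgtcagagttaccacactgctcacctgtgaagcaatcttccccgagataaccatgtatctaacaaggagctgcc
Csf3r (chr4:126024409-126024658, plus strand): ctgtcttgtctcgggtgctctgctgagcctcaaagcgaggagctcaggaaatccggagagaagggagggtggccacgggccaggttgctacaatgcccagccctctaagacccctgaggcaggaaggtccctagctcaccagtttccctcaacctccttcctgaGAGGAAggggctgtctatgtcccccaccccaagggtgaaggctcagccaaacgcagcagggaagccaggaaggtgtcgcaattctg
Cxcr2 (chr1:74153744-74153993, plus strand): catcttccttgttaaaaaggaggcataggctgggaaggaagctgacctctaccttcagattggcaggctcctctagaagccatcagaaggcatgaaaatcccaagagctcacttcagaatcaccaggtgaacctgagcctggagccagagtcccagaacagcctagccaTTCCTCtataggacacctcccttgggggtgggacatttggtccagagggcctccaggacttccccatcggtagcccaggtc
Ngp (chr9:110419558-110419807, plus strand): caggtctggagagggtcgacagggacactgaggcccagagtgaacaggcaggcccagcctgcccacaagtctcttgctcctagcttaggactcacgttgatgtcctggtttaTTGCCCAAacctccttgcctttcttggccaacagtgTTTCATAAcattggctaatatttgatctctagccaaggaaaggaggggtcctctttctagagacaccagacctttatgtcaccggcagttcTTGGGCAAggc
TTNNGNAA occurred before 5 of the 9 members (S100a8, S100a9, Retnlg, Ngp and Ltf) and before 36.8% of the 32851 promoters of the table. GAGGAA occurred before 5 of the 9 (S100a8, Csf3r, Cxcr2, Mpo and Ltf) and before 23.3% of all promoters. S100a8 held both, S100a9 held 2 copies of the first, Csf3r and Cxcr2 held 1 copy of the second, Ngp held 3 copies of the first, and Camp held neither. RefSeq starts differ from the gene bounds used here. Of the windows shown, those of S100a8, Csf3r, Cxcr2 and Ngp run past the gene start given by these bounds. The Csf3r match, and the S100a8 and Ngp matches nearest the RefSeq start, lie inside the bounds. A match is a description of letters, not of binding.

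Calprotectin is the most abundant cytosolic protein of neutrophils and binds zinc, manganese and calcium. Its gene S100a9 stood at 1.08 and 2.30 FPKM on day 0, 10.0 and 4.23 on day 1, 0.388 and 1.04 on day 3, 0.235 and 0.680 on day 5, with 0.156 and 1.16 on day 10. S100a8 stood at 0.347 and 2.48 FPKM on day 0, 5.23 and 2.19 on day 1, 1.10 and 0.356 on day 3, 0.177 and 0.146 on day 5, with 0.235 and 0 on day 10. Both genes were highest on day 1, by mean level, with day 0 next. The S100a9 libraries of day 1 lay above all 8 others, whereas for S100a8 the second day 0 library (2.48 FPKM, 23 reads) lay between the 2 of day 1.

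Each of these levels rests on few reads, at most 75 for S100a9 and 52 for S100a8. The mean of S100a9 on day 1 was 7.13 ± 4.1 FPKM (SD, n = 2), against 1.69 ± 0.862 on day 0 and 0.715 ± 0.462 on day 3. The mean of S100a8 was 3.71 ± 2.15 FPKM on day 1, 1.41 ± 1.51 on day 0 and 0.726 ± 0.522 on day 3 (SD, n = 2). The first library of day 1 held more of both genes than the second.

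A gene entered the test when 2 or more libraries reached 0.5 FPKM, which left 16753 genes, fitted with limma on log2(FPKM + 0.1), 1 fit over the 5 days and Benjamini-Hochberg adjustment, and a call needs an adjusted p of at most 0.05. Fold changes on this scale understate the change of genes with low values. Of the 9 members, 4 passed the filter (S100a8, S100a9, Csf3r and Cxcr2). Cxcr2 passed it only through its 2 libraries of day 1, so that its day 1 maximum and its later fall were fixed by the filter. The other 5 did not pass, and were fitted only in the alternative with no filter.

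From day 0 to day 1, S100a9 differed by 1.98 ± 0.86 (log2, SE) with an adjusted p of 0.188 in limma, and S100a8 by 1.70 ± 0.94 with an adjusted p of 0.292. Neither difference was called after adjustment. From day 1 to day 3, S100a9 fell by 3.15 ± 0.86 (log2, SE; adjusted p = 0.0286 in limma), and all libraries of day 3 lay below those of day 1. S100a8 differed by -2.24 ± 0.94 (adjusted p = 0.108 in limma), with all libraries of day 3 also lower. The S100a9 call was lost without the first library of day 1 (adjusted p = 0.129 in limma), without the first of day 3 (0.138) and without the second of day 3 (0.0714), and with no filter on low values (0.0566).

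Cxcr2, the receptor for the neutrophil attractants Cxcl1, Cxcl2 and Cxcl5, was found on day 1 at 0.527 and 0.599 FPKM (23 and 24 reads). It was at 0 in both libraries of day 0, at 0 and 0.0324 FPKM (2 reads) on day 3, at 0.0201 (1 read) and 0 on day 5, and at 0.0536 (2 reads) and 0.0247 (1 read) on day 10. Day 1 thus held 47 of the 53 reads of this gene. Against 3 reads per library, the largest number that a count of 0 allows, Cxcr2 was at least 7.37-fold higher on day 1 than on day 0. Against the 2 reads of day 3 it was 34.2-fold higher, with an exact 95% interval of 8.96 to 291 that covers counting error only.

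In limma, Cxcr2 differed by 2.73 ± 0.65 (log2, SE) between day 0 and day 1, with an adjusted p of 0.0509, just beyond the threshold. It passed with a pseudocount of 1 (adjusted p = 0.0278) and with no filter on low values (adjusted p = 0.00974). Between day 1 and day 3 it fell by 2.52 ± 0.65 (adjusted p = 0.0233), in a direction that the filter had fixed. That call was lost without either library of day 3 (adjusted p = 0.142 and 0.123), and without either library of day 1 the gene no longer passed the filter. With a pseudocount of 0.01 it was also lost (log2 difference -4.80, adjusted p = 0.0547).

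Csf3r encodes the receptor for granulocyte colony-stimulating factor, which drives the making and release of neutrophils. It followed another course. Csf3r stood at 0.156 and 0.332 FPKM on day 0, 3.44 and 3.10 on day 1, 5.69 and 6.70 on day 3, 1.73 and 2.04 on day 5, with 0.249 and 0.439 on day 10. With 7 to 489 reads per library it was the best measured member, and the libraries of neighbouring days did not overlap.

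Against day 0, Csf3r rose by 3.34 ± 0.31 (log2, SE) on day 1, by 4.24 ± 0.31 on day 3 and 2.57 ± 0.31 by day 5 (adjusted p = 0.00969, 2.6e-04 and 0.00804 in limma). It fell by 1.66 ± 0.31 from day 3 to day 5 and by 3.85 ± 0.31 from day 3 to day 10 (adjusted p = 0.0166 and 5.6e-04). The rise of 0.90 ± 0.31 from day 1 to day 3 had an adjusted p of 0.0599, and on day 10 the difference from day 0 was 0.38 ± 0.31 (adjusted p = 0.668). The order of the days was therefore day 3, day 1, day 5, day 10 and day 0 by mean level. Of the neighbours in this order, days 3 and 1 and days 10 and 0 were compared, and neither difference was called after adjustment. Day 5 was not compared with day 1 or day 10.

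Some of these calls rested on single libraries. The rise on day 1 had an adjusted p of 0.0559 without the first library of day 0 and 0.0668 without the first of day 1, and 0.148 when only days 0 and 1 were fitted. The rise on day 5 had an adjusted p of 0.0601 without the first library of day 0 and 0.0795 without the second of day 5, and the fall from day 3 to day 5 was lost without any of the 4 libraries of these days (adjusted p from 0.0671 to 0.12). The rise on day 3 and the fall to day 10 were called without each library in turn. Within the Xist-expressing libraries alone, Csf3r stood at 6.70 FPKM on day 3 against 0.156 and 0.332 on day 0, and within the others at 5.69 on day 3 against 3.44 and 3.10 on day 1. With a term for Xist in the fit, the rise on day 3 (adjusted p = 0.0027) and the fall to day 10 (0.0049) were still called, and no other member call was.

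**Figure D1:**
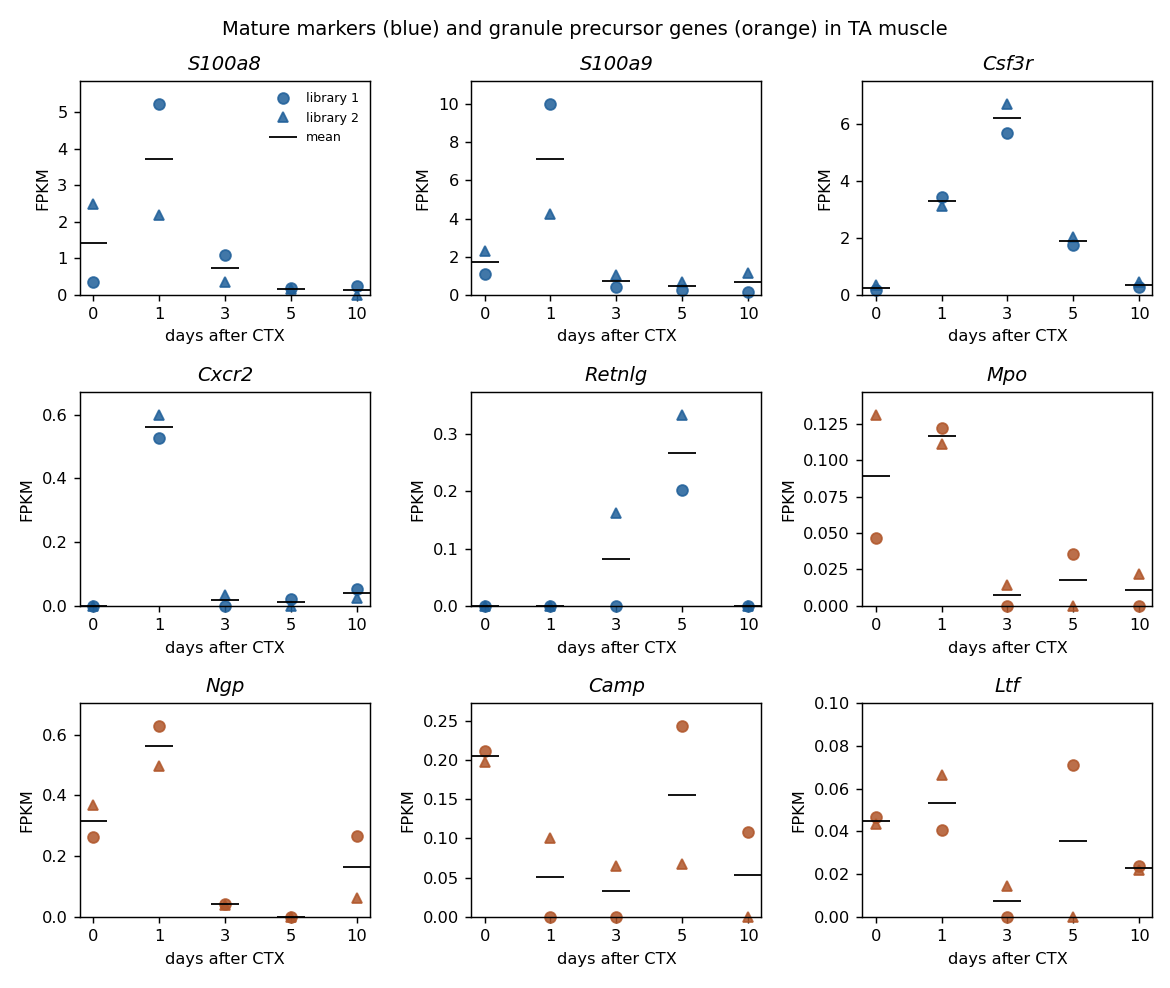
FPKM of each of the 9 genes (vertical axes, each from 0 to its own maximum) against the day after CTX, with circles and triangles for the first and second library of a day and a bar for their mean. S100a8, S100a9 and Cxcr2 are highest on day 1, Csf3r on day 3 at 5.69 and 6.70 FPKM, and the granule precursor genes do not exceed 0.629 FPKM.

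Counted over the members, 1 of the 4 tested rose on day 1 against day 0, where 3.53% of all tested genes rose and 2.47% fell. On day 3 against day 0, 1 of 4 rose, where 24.5% of all genes rose and 24.3% fell. On day 5 it was 1 of 4, against 12.9% of all genes. On day 10 against day 0, 0 of 4 were called in limma, where 0.00597% of all genes were called, and S100a8 alone had an unadjusted p under 0.05 there (0.0281). From day 1 to day 3, S100a9 fell among the 3 members other than Cxcr2, where 16.6% of all genes fell. The call of Cxcr2 is not counted there, since the filter fixed its direction. From day 3 to day 5 and from day 3 to day 10, 1 of 4 fell (Csf3r), where 5.46% and 18.8% of all genes fell.

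The median log2 fold change of the 4 includes Cxcr2, whose direction the filter fixed. This median was 2.35 on day 1 against day 0, -2.38 from day 1 to day 3 and -0.17 on day 3 against day 0. The median over all tested genes lay between -0.0147 and 0.0075 in the 7 comparisons. In the moderated F test over the 5 days, S100a8, S100a9 and Csf3r were called (adjusted p = 0.0366, 0.0365 and 0.0014 in limma). So were 43% of all genes. Cxcr2 was also called (adjusted p = 0.0389 in limma), but the filter fixed its maximum, so its call is not counted as support. The F test called 1 member when any single library of days 1, 3 or 5 was left out and 2 members without either library of day 0 or the second of day 10. By mean level, S100a8 and S100a9 were highest on day 1 and Csf3r on day 3, where 17.4% and 31.5% of all tested genes had their highest mean.

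**Figure D2:**
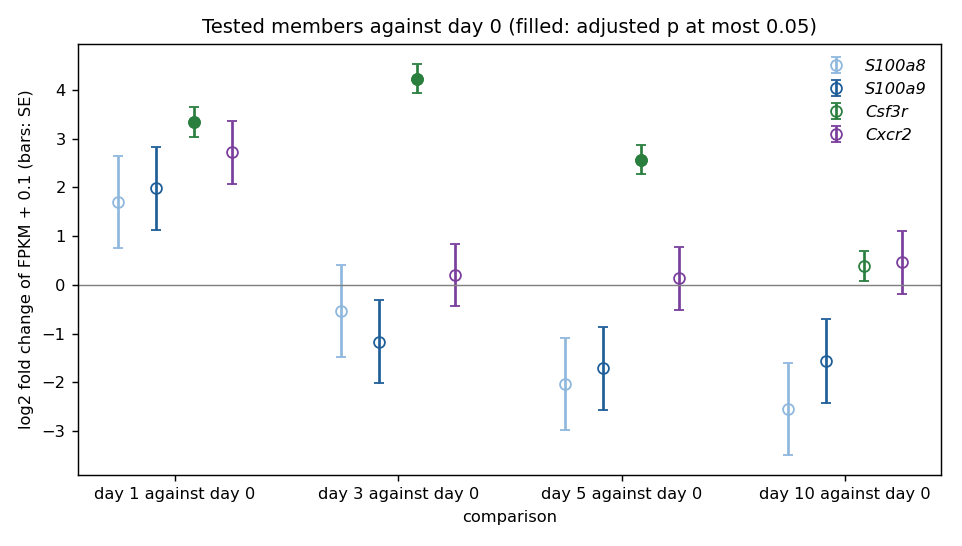
Log2 fold change of FPKM + 0.1 against day 0 (vertical axis) for the 4 tested members on days 1, 3, 5 and 10, with SE bars and filled points where the adjusted p in limma is at most 0.05. Only Csf3r has filled points, at 3.34, 4.24 and 2.57 on days 1, 3 and 5, while S100a8 and S100a9 lie below 0 from day 3 on.

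Retnlg, which encodes a resistin-like secreted protein of mature mouse neutrophils, had 8 reads in all, too few to compare its course with the other mature markers. It was at 0 in 7 of 10 libraries, those of day 1 included, and was seen with 2 reads in the second library of day 3 and with 2 and 4 reads on day 5 (0.202 and 0.334 FPKM). A count of 0 allows up to 0.385 FPKM of Retnlg on day 1 and 0.406 on day 0, which is above every value measured. With no filter, limma put its difference from day 0 at 1.86 ± 0.42 on day 5 (log2, SE; adjusted p = 0.0422), a value that rests on those 6 reads and on the pseudocount. Reads were also too few for the marker of the mouse granulocyte surface, Ly6g, which had at most 1 read in any library (named after its values were seen).

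The granule precursor genes gave 86 reads in all 10 libraries together, against 1866 for the mature markers. Ngp, a neutrophilic granule protein related to the cathelicidins, had the most. It stood at 0.263 and 0.368 FPKM on day 0 (4 and 6 reads), 0.629 and 0.498 on day 1 (11 and 8 reads), 0.0415 and 0.0405 on day 3 (1 read each), 0 and 0 on day 5, with 0.267 and 0.0617 on day 10 (4 reads and 1 read). The libraries of day 1 were the highest and those of days 3 and 5 the lowest, without overlap with day 0. Ngp just missed the filter on low values, with 1 library at 0.5 FPKM or more. With no filter, limma put its difference from day 0 at -1.55 ± 0.42 on day 3 and -2.04 ± 0.42 on day 5 (log2, SE; adjusted p = 0.0322 and 0.0333).

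Mpo, the myeloperoxidase that makes hypochlorous acid, had 2 and 6 reads on day 0, 6 and 5 on day 1 and 0 to 2 in every later library, with a highest level of 0.131 FPKM. Ltf, the iron-binding lactoferrin, had 2 and 2 reads on day 0, 2 and 3 on day 1, 0 and 1 on day 3, 4 and 0 on day 5, with 1 and 1 on day 10. Camp, the cathelicidin whose cleavage gives an antimicrobial peptide, had 0 to 3 reads in every library. For Ltf and Camp, 3 reads correspond to up to 0.071 and 0.323 FPKM, and no order of the days can be read from their values.

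The summed FPKM of the 4 granule precursor genes was 0.568 and 0.74 on day 0, 0.791 and 0.776 on day 1, 0.0415 and 0.134 on day 3, 0.35 and 0.0669 on day 5, with 0.399 and 0.106 on day 10. The summed level thus differed little between days 0 and 1 and lay lower in all 6 later libraries. The 5 mature markers summed to 1.58 and 5.11 FPKM on day 0, 19.2 and 10.1 on day 1, 7.17 and 8.29 on day 3, 2.37 and 3.2 on day 5, with 0.694 and 1.62 on day 10. Both mature sums of day 1 lay above those of day 0, and the difference between the 2 groups of genes was not tested.

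The ratio of the granule precursor to the mature sum was 0.36 and 0.145 on day 0, 0.0411 and 0.0767 on day 1, 0.00578 and 0.0162 on day 3, 0.148 and 0.0209 on day 5, with 0.574 and 0.0652 on day 10. The libraries of day 0 lay above those of days 1 and 3, which did not overlap each other. As a ratio of geometric means of FPKM + 0.1, days 1 (0.133 and 0.217) and 3 (0.215 and 0.201) did overlap. On day 3 the mature sum was almost all Csf3r, which took 95.5% and 96.1% of the reads on mature markers there, against 41.2% and 29.1% on day 0 and 54.3% and 66.8% on day 1. The ratio of S100a9 to S100a8 was 1.92 and 1.93 in the libraries of day 1 and 0.355 to 4.65 in the others with S100a8 above 0, where the reads are fewer.

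Granules hold further proteins. Of 5 other primary granule genes in the table, 1 was tested, Prss57, a neutrophil serine protease. It was 1.32 ± 0.43 higher on day 3 than on day 0 (log2, SE; adjusted p = 0.0356 in limma), where 24.5% of all genes rose. Prss57 reached 0.5 FPKM only in both libraries of day 3 and the first of day 1. It thus entered the test through days where it was high, and its call is not counted as support. Prtn3, the proteinase 3 gene, had at most 5 reads in a library, and Ctsg (cathepsin G) was not tested. The 5 genes together summed to 0.279 to 1.51 FPKM.

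Of 10 other secondary and tertiary granule genes, 5 were tested, and Chil3 and Lcn2 rose on day 1 against day 0, where 3.53% of all tested genes rose. Chil3, a chitinase-like protein also made by macrophages, stood at 5.95 and 8.82 FPKM on day 1 and 0.246 and 0.413 on day 0, a rise of 4.12 ± 0.40 (log2, SE; adjusted p = 0.00969 in limma). Lcn2, the siderophore-binding lipocalin of secondary granules, named after its values were seen, stood at 2.93 and 2.99 FPKM on day 1 and at or below 0.2 in all 8 other libraries (110 and 103 reads against at most 7). Lcn2 passed the filter only through those 2 libraries, so the direction of its fitted differences, 3.57 ± 0.47 on day 1 against day 0 (adjusted p = 0.02) and -4.57 ± 0.47 from day 1 to day 3 (adjusted p = 0.00228), was fixed by that choice. Mmp9 (gelatinase B) and Chil1 differed on day 1 by 1.35 ± 1.01 and 2.53 ± 0.62 (adjusted p = 0.435 and 0.0546).

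Of 16 other genes of mature neutrophils, 6 were tested. Of these 6, 2 had their highest mean a day after CTX, where 17.4% of all tested genes had theirs. Day 3 held the maximum of another 2 (31.5% of all tested genes), day 0 of 1 (26.1%) and day 10 of 1 (12.5%). Of the 2 with a day 1 maximum, Clec4e, named after its values were seen, reached 0.5 FPKM only there (0.872 and 0.782). The filter thus fixed the maximum of Clec4e, which is not counted as support. On day 3 against day 0, 1 of 6 rose and 2 fell, where 24.5% of all genes rose and 24.3% fell. Slpi, an inhibitor of neutrophil elastase that other cells also make, rose by 4.04 ± 0.60 on day 1 (log2, SE; adjusted p = 0.0214 in limma) and by 4.35 ± 0.60 on day 3 (adjusted p = 0.00109). Clec4d, a lectin receptor of myeloid cells, stood at 5.98 and 5.00 FPKM on day 1 against 0.653 and 1.92 on day 0 (adjusted p = 0.163). G0s2, also a lipolysis inhibitor of fat and muscle and by far the most abundant of the list, went the other way, with a fall of 2.81 ± 0.41 on day 3 against day 0 (adjusted p = 0.00136). The other gene that fell was Stfa2l1, a stefin A family member named after its values were seen, which had 3 and 5 reads on day 0, 2 and 0 on day 1 and 0 in all later libraries (log2 difference on day 3 -3.05 ± 0.81, adjusted p = 0.017), and which passed the filter only through day 0.

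All 6 ligands of Cxcr2 and Csf3r in the table were highest on day 1 by mean level. Of the 4 tested, Ppbp, Cxcl1 and Cxcl5 (the last named after its values were seen) reached 0.5 FPKM only in the libraries of day 1, so that the filter fixed the direction of their rise and fall and their calls are not counted here. Ppbp, a platelet chemokine precursor, stood at 3.10 and 2.04 FPKM on day 1 against 0 and 0.415 on day 0. Cxcl1 stood at 2.53 and 1.10 FPKM on day 1 against 0.171 and 0.240 on day 0. Cxcl2, the fourth, had 0.660 and 0.942 FPKM on day 0, with 1.59 and 0.920 a day after CTX, and dropped to 0.0490 and 0.0717 by day 3. It fell by 3.04 ± 0.45 from day 1 to day 3 (log2, SE; adjusted p = 0.00436 in limma).

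Tlr4 and Ager, receptors for calprotectin, rose on day 3 against day 0 by 1.23 ± 0.43 and 0.85 ± 0.30 (log2, SE; adjusted p = 0.0447 and 0.0466 in limma). Cd36, a fatty acid receptor of muscle, endothelium and macrophages that also binds the calprotectin complex, fell by 1.83 ± 0.43 (adjusted p = 0.00945). The 3 receptors therefore did not share the day 1 maximum of S100a8 and S100a9.

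Of the 6 transcription factors of granulopoiesis, 4 were tested. By mean level Spi1 (PU.1) and Cebpa were highest on day 3, as Csf3r was. Cebpb and Cebpd (the latter named after its values were seen) were highest on day 1. On day 3 against day 0, 2 of the 4 rose and 1 fell, where 24.5% of all genes rose and 24.3% fell. Spi1 stood at 0.804 and 0.750 FPKM on day 0, 3.99 and 4.04 on day 1, 12.2 and 11.5 on day 3 and then 4.21 and 4.57 on day 5, and rose by 3.77 ± 0.29 on day 3 (log2, SE; adjusted p = 2.7e-04 in limma). Cebpa rose by 3.43 ± 0.33 on day 3 (adjusted p = 3.9e-04). Cebpb, which is also induced in regenerating muscle and macrophages, stood at 39.5 FPKM on day 0 and 49.0 on day 1 by mean level. It fell by 1.42 ± 0.24 on day 3 against day 0 (adjusted p = 0.0026). Cebpe and Gfi1, which act in the granule-forming precursors and were named after their values were seen, had at most 6 and 8 reads in a library.

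The subunits of the phagocyte NADPH oxidase, which neutrophils and macrophages share, were all highest on day 3, where 31.5% of all tested genes had their highest mean. All 6 rose on day 3 against day 0, where 24.5% of all genes rose, with a median log2 fold change of 3.65, and 3 of 6 rose on day 1. Cybb, the catalytic subunit, rose by 4.38 ± 0.44 on day 3, Ncf1 by 3.95 ± 0.40 and Cyba by 3.32 ± 0.44 (log2, SE; adjusted p = 4.3e-04, 4.1e-04 and 9.8e-04 in limma).

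Markers of macrophages peaked on day 3, as Csf3r did. The 9 monocyte and macrophage markers, led by C1qa, C1qb and C1qc, summed to 22.4 and 42.4 FPKM on day 0, 121 and 133 on day 1, 658 and 626 on day 3, 222 and 284 on day 5, with 40.5 and 114 on day 10. All 9 were highest on day 3, where 31.5% of all tested genes had their highest mean. All 9 rose on day 3 against day 0, where 24.5% of all genes rose. Their median log2 fold change was 4.29 there, beside the 4.24 of Csf3r. On day 1 against day 0 their median was 1.44, with 3 of 9 called, where 3.53% of all genes rose. From day 1 to day 3 the median was 2.58. Csf3r rose by more than these markers did on day 1, and by less from day 1 to day 3. In bulk muscle, fewer cells of a type and less RNA per cell cannot be told apart. Csf3r is also transcribed in monocytes, and the part of these cells in its level was not tested.

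Set against Csf1r, the receptor of the monocyte line, Csf3r stood at 0.0532 and 0.0888 on day 0, 0.463 and 0.329 on day 1, 0.123 and 0.12 on day 3, 0.126 and 0.133 on day 5, with 0.0856 and 0.0723 on day 10 (ratios of FPKM, with no test). The ratio was highest in the libraries of day 1, although the level of Csf3r was highest on day 3. From day 3 to day 5 the ratio lay between 0.12 and 0.133 in all 4 libraries, while the level of Csf3r fell from 6.19 ± 0.716 to 1.89 ± 0.214 FPKM (mean ± SD, n = 2).

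**Figure D3:**
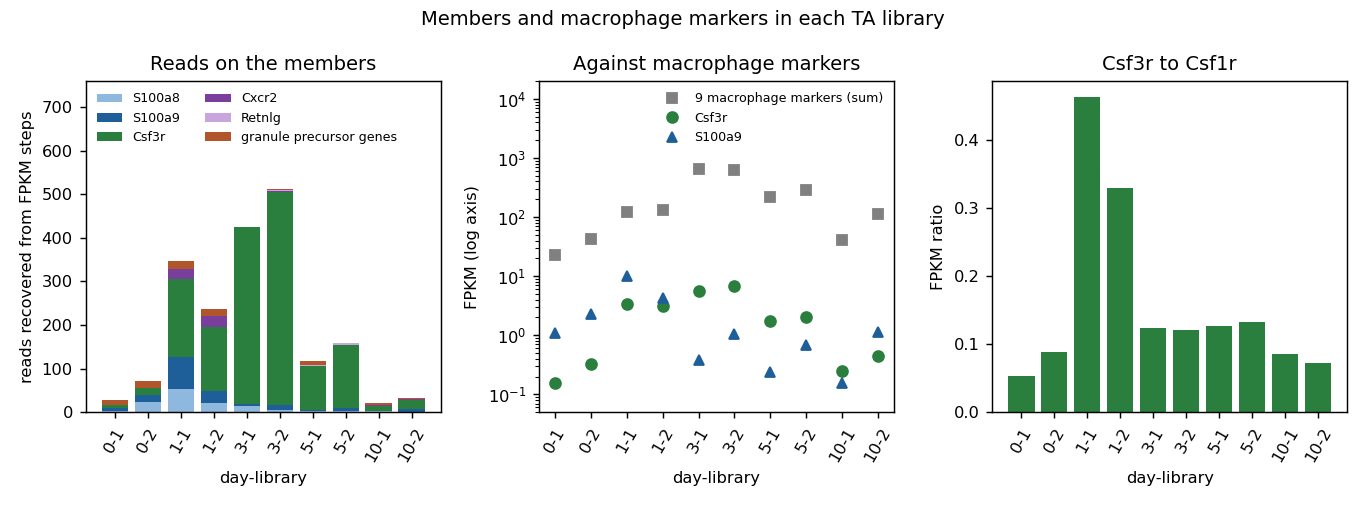
Left, reads on each mature marker and on the granule precursor genes together, stacked by library. Middle, FPKM on a log axis of the summed macrophage markers, Csf3r and S100a9. Right, the ratio of Csf3r to Csf1r in FPKM. Csf3r makes up 95.5% and 96.1% of the mature reads on day 3. Csf3r and the macrophage markers are highest on day 3, and S100a9 is not. The ratio is highest on day 1 at 0.463 and 0.329.

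Other blood cells moved differently. The 5 red cell genes (led by Hbb-bs, Hba-a1 and Hba-a2) summed to 237 and 357 FPKM on day 0, 89.9 and 132 on day 1, 148 and 43.7 on day 3, 198 and 687 on day 5, with 131 and 180 on day 10. The second library of day 0, with 23 reads of S100a8 against 3 in the first, also had more of the red cell genes and of the macrophage markers, and their part in that difference was not tested. On day 1 the red cell genes were below day 0 while S100a9 was above it.

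The 4 eosinophil markers (Prg2, Siglecf, Ccr3 and Epx) stayed at or below a sum of 0.591 FPKM, with none tested. The mast cell and basophil markers (led by Cpa3, Cma1 and Tpsb2) summed to 5.54 and 9.73 FPKM on day 0, 10.4 and 9.59 on day 1, 3.04 and 8.18 on day 3, 5.85 and 8.18 on day 5, with 3.52 and 3.97 on day 10. Of the 4 tested, 1 fell from day 1 to day 3, where 16.6% of all genes fell. It was Cpa3, a protease of mast cell granules. By mean level Cma1 went from 2.66 to 1.98 FPKM between these days, Tpsb2 from 1.36 to 1.45 and Mcpt4 from 0.641 to 1.55. Cpa3 had 1.53 and 5.38 FPKM on day 0, then 5.43 and 4.42 a day after CTX, with 0.401 and 0.847 by day 3, and fell by 2.86 ± 0.58 from day 1 to day 3 (log2, SE; adjusted p = 0.0108 in limma). Cpa3 thus moved with S100a9 between these days, while the other tested markers were not called. The part of mast cells in the level of S100a9 was not tested. The keratinocyte markers (led by Krt10, Krt5 and Krt14) and the marrow genes of other lineages (led by Vpreb1, Klf1 and Vpreb3) summed to at most 1.52 and 0.935 FPKM.

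The tested genes with the profile most like the mean of the 5 mature markers over the 10 libraries were Gm16548 (Pearson r = 0.961), Pprc1 (0.96), Por (0.949), Ccl7 (0.944) and Klhl2 (0.94), among 13948 genes that reached 1 FPKM in 2 or more libraries. All 5 were highest on day 1, and Ccl7, a monocyte chemokine, stood at 46.5 FPKM there against 0.571 on day 0. For the granule precursor genes the nearest were Exoc7 (0.97), Abhd6 (0.938), 4930466K18Rik (0.932), Pcnx (0.932) and Gm13554 (0.924), which were lower on days 3, 5 and 10 than on days 0 and 1. These correlations share depth and library, and the profile of the granule precursor genes rests on 86 reads.

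C2C12 myoblasts, a cloned mouse muscle cell line with no blood cells, show where the members should be absent. The knockdown cells carried dCas9-KRAB directed to the Mettl3 promoter, and what the control cells carried is not described. RNA was taken in growth medium (GM) or after 3 days in differentiation medium (DM3), in 2 libraries for each group. Mettl3 was at 4.70 and 5.65 FPKM in GM and 4.68 and 5.15 on DM3 in the control cells, and at 0.331 and 0.118 in GM and 0.148 and 0.0805 on DM3 in the knockdown cells, so the labels hold. S100a9, Csf3r, Cxcr2, Retnlg, Mpo and Ngp were at 0 in all 8 libraries, S100a8 had at most 8 reads (0.363 FPKM) and Ltf had 1 read in 1 library. At 14230000 to 29570000 reads on genes, a count of 0 still allows 3 reads.

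Camp was the exception. In the control cells it stood at 8.05 and 9.97 FPKM in GM (194 and 73 reads) and 0.722 and 1.51 on DM3 (15 and 19 reads). In the knockdown cells it stood at 4.43 and 1.87 FPKM in GM (106 and 26 reads) and 5.73 and 5.48 on DM3 (121 and 61 reads). Camp was thus far above its level in injured muscle, where it had at most 0.243 FPKM, although the 2 tables were scaled separately and were not tested against each other. The control and knockdown libraries did not overlap in either medium, and lay in opposite orders.

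The tests of Camp were added after its values had been seen, over 13824 genes. In the control cells Camp differed by -2.98 ± 0.47 (log2, SE) between GM and DM3, with an adjusted p of 0.0508 in limma. Libraries with the same replicate number deviated together in this table, and with the replicate as a block the adjusted p was 0.0445 in limma. The first library of each group was also the deeper, with 25170000 to 29570000 reads on genes against 14230000 to 18900000. The part of depth in this pairing was not tested. With each library left out in turn, this difference ranged from -3.46 to -2.50 and its adjusted p from 0.026 without the first control library of GM to 0.423 without the first control library of DM3. The share of all genes called was 1.14%. On DM3 the knockdown cells differed from the control cells by 2.31 ± 0.47 (adjusted p = 0.0719, and 0.0642 with the block), where 1.98% of all genes were called. In GM the difference was -1.60 ± 0.47 (adjusted p = 0.444), where 0% of all genes were called, and in the knockdown cells DM3 differed from GM by 0.93 ± 0.47 (adjusted p = 0.515), where 0.0289% were called. The GM difference was -2.20 without the first knockdown library of GM and -1.0 without the second, and the difference between media in the knockdown cells was then 1.53 and 0.33. The DM3 difference ranged from 1.83 to 2.79 with each library left out (adjusted p from 0.051 to 0.481 in limma). The unadjusted p of Camp in these 4 limma comparisons was 6.2e-04, 0.0024, 0.0138 and 0.0942.

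**Figure D4:**
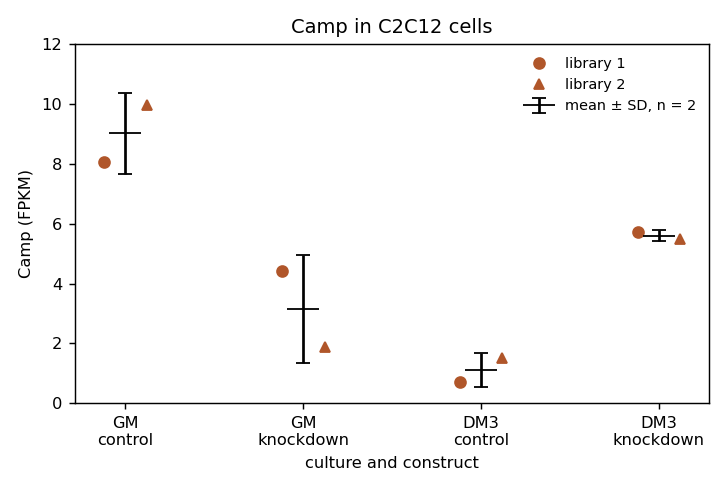
Camp in FPKM (vertical axis from 0) in each of the 8 C2C12 libraries by medium and by control or knockdown, with the mean and SD of each pair. Control cells stand at 8.05 and 9.97 in GM and 0.722 and 1.51 on DM3, and the knockdown cells lie below the control in GM and above it on DM3.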

How the data were processed

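Total RNA of TA muscle (5 days, 2 libraries per day) and of C2C12 cells (4 groups, 2 libraries each) was sequenced by the authors, aligned to GRCm38 with HISAT2, counted with featureCounts and deposited as FPKM from DESeq2. Tool versions and the strand setting are not given in the sources used here. The tables were scaled separately and were tested only within each table. Libraries were grouped by label.

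The log2 of FPKM plus 0.1 was modelled by limma 3.58.1 in R 4.3.3 (eBayes with a mean-variance trend) over all groups of a table, two-sided, with Benjamini-Hochberg adjustment. Only genes reaching 0.5 FPKM in 2 or more libraries entered. The study used DESeq2 on counts, which an FPKM table does not allow. An exact permutation test of 2 against 2 has a smallest two-sided p of 0.333, so every p rests on the model. On simulated data for day 1 against day 0 (16753 genes, 200 changed by 4 on the log2 scale), 179 of 200 were recovered with 14 false calls. For GM knockdown against control (13824 genes), 160 of 200 were recovered with 8 false calls. Both simulations used normal noise around 1 mean per gene, with no other differences between groups. Their rates do not describe members with few reads or smaller differences.

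Reads were recovered as multiples of the value of 1 read with GENCODE M21 exon lengths, matched to 53360 of 53465 genes. Between 96.22% and 97.06% of values of up to 30 reads lay within 0.02 of a whole number, and the members lay within 0.099. Reads give depth and limits of 3 reads, cover counting error only and were not tested. Promoters are RefSeq's, and the 2 motifs were chosen after other short patterns had been looked at. Python 3.11.15, pandas 2.3.3, numpy 2.4.6 and matplotlib 3.10.9 were used.

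The members and all lists were chosen with earlier results of these data known. Named were all members, the 3 most abundant genes of each list, those against a list's direction, and the 5 genes of the most similar profile. In the C2C12 table the deviations of libraries with the same number correlated at 0.278 to 0.68 (6 of 6 above 0.1). The numbers pair them by this measure, although depth was split the same way. Alternatives were pseudocounts, filters, scalings, fits of 2 days, a replicate block, a term for Xist, a fold threshold and each library left out. The 8 other C2C12 libraries were not analysed here.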

Additional observations from a re-analysis of the deposited data

Results flagged for a closer look

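The difference of Camp between knockdown and control cells had opposite signs in the 2 media in every library, below the control in GM and above it on DM3. The knockdown effect on DM3 differed from that in GM by 3.91 ± 0.67 (log2, SE), with an adjusted p of 0.266 in limma and 0.18 with the replicate as a block, so the difference between the effects did not pass the correction over 13824 genes, of which 0% were called. Its unadjusted p was 9.3e-04.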

How the results depend on the processing

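Of 604 refits of single members, 554 kept their direction and side of the threshold. Some could hardly differ, since the median-ratio factor was 1.008 in every muscle library and the fold threshold kept the main estimates. The refits of Cxcr2 are among them, with a direction that the filter fixed. S100a9 turned from -0.55 to 0.067 with a term for Xist and Cxcr2 from -0.07 to 0.13 (day 5 against day 3), and S100a9 turned from -0.40 to 0.081 under quantile normalization (day 10 against day 3), none of them called. Quantile normalization moved the median of all genes by -0.12 on day 3 against day 0. For day 1 against day 0, the number of members called was 1, with 2 at a pseudocount of 1 or without a filter, and 0 when only 2 days were fitted or Xist was a term. For day 3 against day 1 it was 2 (S100a9 and Cxcr2, the latter fixed by the filter), with 1 at a pseudocount of 0.01 or a filter at 1 FPKM and 0 with Xist. For day 5 against day 0 it was 1, with 3 without a filter and 0 with Xist. For day 5 against day 3 it was 1, with 0 with Xist or a log2 change of at least 2. For day 3 against day 0 it was 1, with 2 without a filter. The F test called 4, Cxcr2 included, with 1 at a pseudocount of 0.01, 1 with Xist and 2 with the replicate block. In the muscle table same-numbered libraries correlated at -0.0187 to 0.211, with 2 of 10 above 0.1, so the numbers are not taken to pair them. The replicate block moved no other count of members by more than 1.5 times there, and added a call of Csf3r from day 1 to day 3 (adjusted p = 0.035 in limma).

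Leaving out each library in turn gave 0 to 1 members for day 1 against day 0, 0 to 1 for day 5 against day 0, 0 to 3 for day 3 against day 1, 0 to 1 for day 5 against day 3 and 1 to 3 for the F test. S100a8 on day 3 against day 0 ranged from -1.81 to 0.72, S100a9 on day 5 against day 3 from -1.16 to 0.067 and on day 10 against day 3 from -1.54 to 0.75, and Cxcr2 on day 5 against day 3 from -0.27 to 0.13. The lone library left on a day is assumed to vary like the other days.

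The ratio of granule precursor to mature genes was 0.685, 0.175, 0.208 and 0.36 on days 0, 1, 3 and 5 as a ratio of geometric means, against 0.253, 0.0589, 0.011 and 0.0844 from sums. Without S100a8 and S100a9 it was 2.94, 0.205 and 0.774 on days 0, 1 and 10. The cause was not tested for any of these. At these depths a gene with 3 reads or fewer cannot be ordered between days, which holds for Camp in all 10 muscle libraries and for most values of Retnlg, Mpo and Ltf.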
